A study of Mus musculus with 14 samples.

Results

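The DNA replication machinery is described here as 39 genes that open, copy and seal DNA or supply its building blocks, out of 18194 genes measured on the same arrays. The genes were listed by symbol, with earlier results of these data known, and each is read from 1 probe set, the one with the highest mean log2 intensity over all 14 arrays. All 39 symbols were found. Total RNA came from mouse bone marrow cells of a mixed B6/129 background that carried the Mx transgene, a Cre driven by an interferon-inducible promoter, and was hybridised to Affymetrix mouse expression arrays after amplification from 5 ng. Wild type (WT, Tet2+/+ Mx+) and Tet2 knockout (KO, Tet2-/- Mx+) littermates had both been injected with pIC, the double-stranded RNA that switches this Cre on. The Tet2 protein oxidises 5-methylcytosine, an early step of DNA demethylation.

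Sorted cells made 6 groups: LSK cells (lineage negative, Sca1 and c-Kit positive, a population that holds the stem cells), common myeloid progenitors (CMP) and granulocyte-macrophage progenitors (GMP), each WT and KO. For LSK and CMP, the labels put the sort at 4 weeks after the deletion; for GMP no interval is stated. The seventh group, called replated KO here, held colony-forming cells at plating 5 of a serial replating that began with CD150+ sorted KO cells. A replated WT group was not analysed here, so replated cells are compared with sorted KO cells only, and culture, time and cell identity cannot be told apart in that contrast. There were 2 arrays in each group. Whether these came from separate animals or cultures is not stated, so the p-values measure only the spread between these samples.

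Before S phase, the origin recognition complex, Cdc6 and Cdt1 load the ring of MCM proteins onto DNA, and Cdc45 and the GINS proteins then turn that ring into a moving helicase. Primase and polymerase alpha start each strand, the clamp loader RFC places the PCNA ring, and polymerases delta and epsilon extend the strand while RPA covers single-stranded DNA, Fen1 trims and Lig1 joins the fragments. Transcripts of many of these genes are known to rise with E2F activity at the G1/S transition. In bulk RNA, fewer cells expressing a gene and less RNA per expressing cell cannot be told apart.

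All 39 genes lay above the floor, the brightest bacterial control probe set of each array (20.8 to 27.8), on all 14 arrays. Intensity depends on the probes, so it is compared within a gene and not between genes. Median intensity gaps between the 2 arrays of a group lay between 0.12 and 0.35 on the log2 scale over these genes, and the largest single gap was 2.66-fold, for Gins3 in WT LSK. Of the markers of the sorted populations, the summed level of 8 stem cell and LSK genes was 11629 to 14953 in the LSK arrays and 2091 to 3155 in the GMP arrays, and that of 6 CMP and GMP gate and early granulocyte genes was 17321 to 20431 in LSK and 46123 to 48245 in GMP. Cd34 of that list ran the other way, at group levels of 5139 in WT LSK and 3940 in WT GMP. Markers of other cell types were present in the sorted arrays: 6 late neutrophil genes summed to 13860 to 21357 in LSK, 12252 to 19524 in CMP and 12480 to 15269 in GMP, and 5 B cell genes to 1824 to 3100 in LSK and 650 to 1148 in CMP and GMP. The B cell sum was led by Cd79b, at group levels of 596 to 1119, and in LSK also by Ebf1, at 1426 in WT and 875 in KO. Pax5 of that list lay at or below the floor in every sorted group, and Ms4a1 did so in the WT groups. The replated cells stood apart. Their 7 measured mast cell and basophil genes summed to 58457 and 60507, against 420 to 3393 in the sorted arrays, all 7 above the floor on both arrays. Cma1, Fcer1a and Cpa3 led that sum, with group levels of 15427, 14201 and 13790. Mcpt8 of the same list was not highest in the replated cells, at 491 against 136, 650 and 936 in KO LSK, CMP and GMP. Mpo, Elane, Prtn3 and Ctsg, granule genes of early neutrophils, lay at or below the floor in the replated cells. Fcgr3 and Cd34, on the same list, read 5355 and 4094 there. The 8 stem cell and LSK genes summed to 9225 and 10259 in the replated cells. Of them, Kit was 5230 against 1421 to 2281 in the sorted KO groups. Hlf, Flt3 and Procr were lower than in each sorted KO group, at 36.5, 26.9 and 15.9, and Mecom was 2974. Megakaryocyte genes, 5 in all, summed to 3749 and 3810 in the replated cells, against 1373 to 3557 in the sorted arrays, but they went opposite ways. Itga2b and Vwf were higher there than in any sorted group, at 1791 and 1619. Pf4 and Gp1bb were lower than in any, at 140 and 19.6, and Gp9, at 204, lay within the range of the sorted groups. Late neutrophil genes of the replated cells summed to 113 and 132 and B cell genes to 92.2 and 95.1. Sex-linked transcripts also moved with the groups: Xist was 5011 to 6591 in the sorted KO groups, 21.3 to 28.1 in the WT groups and 20.1 in the replated cells, and Eif2s3y ran the other way. The part of other cell types, cell identity, culture and sex in the results that follow was not tested. The brighter Tet2 probe set was higher in each KO group than in its WT group, at group levels of 1261 against 613 in LSK, 1977 against 1256 in CMP and 2301 against 1569 in GMP, and 1805 in the replated cells. The dimmer Tet2 probe set was lower in each KO group, at 38.5 against 73.8 in LSK, 60.7 against 89.2 in CMP and 141 against 155 in GMP. Its KO and WT arrays overlapped in LSK and GMP, and it read 788 in the replated cells. The position of the probes relative to the deleted part is not known here, so this does not check the labels, and KO and WT stand for the groups so labelled.

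The replication genes were low in the replated KO cells. Of the 39, limma called 31 lower than in KO LSK, 33 lower than in KO CMP and 32 lower than in KO GMP at an adjusted p below 0.05, and 30 genes were lower in all 3 comparisons. Over all genes tested, 14.2%, 14.1% and 15.2% were called lower and 10.8%, 10.3% and 10.2% higher in the same comparisons, and 9.55% were lower in all 3. The median difference of the 39 genes was -1.43, -1.64 and -1.72 on the log2 scale, that is 2.70-, 3.12- and 3.30-fold lower, against medians of 0.01, -0.07 and -0.06 over all genes. A single gene, Rfc2, was called higher, against KO GMP only, and with the mean of all its probe sets it was called higher in all 3 comparisons. The 3 comparisons share the replated arrays, so they are not independent of each other.

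**Figure D1:**
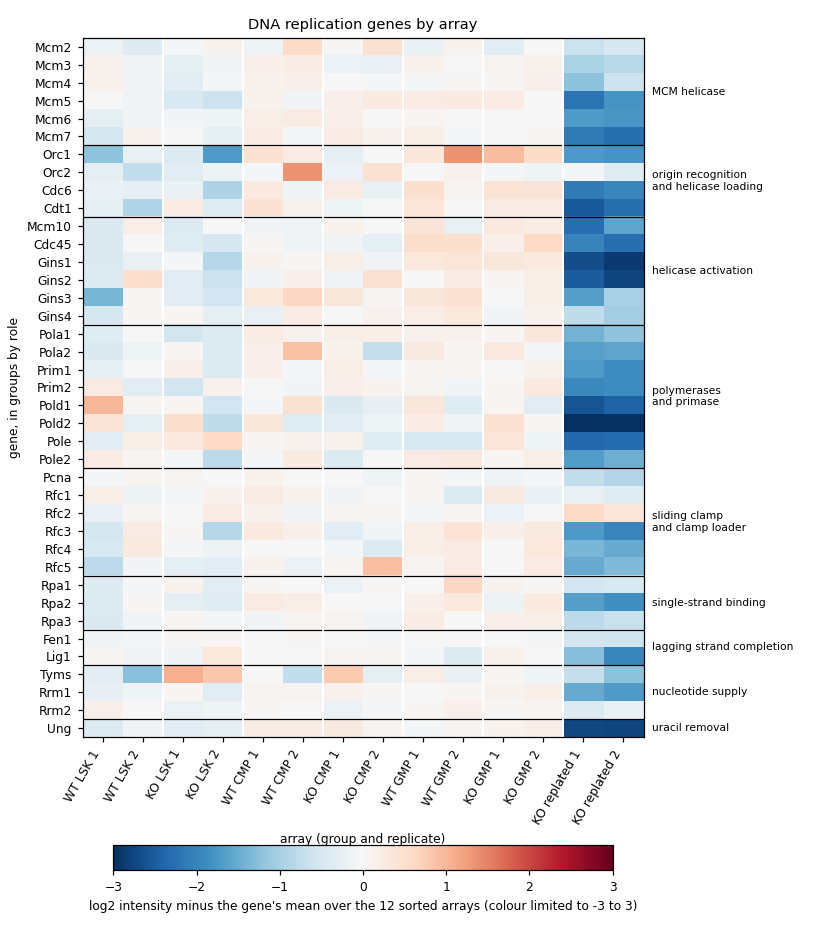
Log2 intensity of each of the 39 replication genes (vertical axis, grouped by role) on each of the 14 arrays (horizontal axis), as the difference from that gene's mean over the 12 sorted arrays. The 2 replated columns are blue for nearly every gene, Rfc2 is red there, and the sorted columns vary by less, with paler blue for many genes in LSK than in CMP or GMP.

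The separation did not rest on single arrays. For 34 of the 39 genes both replated arrays lay below all 12 sorted arrays, WT included, against 16.4% of all genes. For Rfc2 both lay above all 12, as for 12.9% of all genes. Orc2, Gins3, Rfc1 and Tyms overlapped with the sorted range. The mean log2 intensity over the 39 genes was 8.83 and 8.85 on the replated arrays and 10.07 to 10.49 on the sorted arrays.

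The MCM helicase is the ring of 6 related proteins, Mcm2 to Mcm7, that unwinds the DNA. Mcm7 read 2499.6 and 3822 in WT LSK, 3548 and 2883 in KO LSK, 4176 and 3454 in WT CMP, 4236 and 3840 in KO CMP, 3999.8 and 3475 in WT GMP, 3521 and 3648 in KO GMP, and 821 and 748 in replated KO. Mcm5 read 1661 and 1529 in WT LSK, 1208 and 1051 in KO LSK, 1763 and 1558 in WT CMP, 1827 and 1982 in KO CMP, 1949 and 1979.8 in WT GMP, 1949 and 1663 in KO GMP, and 354 and 481 in replated KO. For both genes the replated arrays lay far under the lowest sorted array. The sorted groups overlapped for Mcm7, and for Mcm5 the KO LSK arrays were the lowest of the sorted ones. Mcm7 fell by 2.03 ± 0.21 on the log2 scale against KO LSK, by 2.36 ± 0.21 against KO CMP and by 2.19 ± 0.21 against KO GMP (moderated SE, n = 2 arrays a group, limma adjusted p between 3.71e-05 and 9.81e-05). Mcm5 fell by 1.45, 2.21 and 2.13 (SE 0.17 each, limma adjusted p at most 0.000232). Mcm6 fell by 1.61 to 1.78 and Mcm3 and Mcm4 by 0.71 to 1.03 in the 3 comparisons. Mcm4 lost its call against KO LSK without KO LSK replicate 2 (-0.58) or replated replicate 1 (-0.42), and against KO CMP without the latter.

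On the probe set used, Mcm2 was the least moved of the 6 against KO LSK and KO GMP, and Mcm3 was against KO CMP. Another probe set of Mcm2, given below, fell by 1.38, 1.59 and 1.63 against KO LSK, CMP and GMP. The Mcm2 probe set used read 1484 and 1276 in WT LSK, 1607 and 1785 in KO LSK, 1522 and 2500.3 in WT CMP, 1721 and 2300.5 in KO CMP, 1446 and 1794 in WT GMP, 1315 and 1659 in KO GMP, and 1069.8 and 1186 in replated KO. Both replated arrays lay under the lowest sorted array, 1276, but close to it. Mcm2 fell by 0.82 ± 0.25 against KO CMP (limma adjusted p = 0.0429), a call lost without any 1 of 11 arrays. The differences against KO LSK and KO GMP, -0.59 and -0.39, did not pass (limma adjusted p = 0.134 and 0.343).

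Loading of the ring uses the origin recognition complex, here Orc1 and Orc2, with Cdc6 and Cdt1. Cdt1, the licensing factor that is destroyed once S phase begins, read 1573 and 1029.5 in WT LSK, 2220.2 and 1495 in KO LSK, 2588 and 2093 in WT CMP, 1737 and 1943 in KO CMP, 2466 and 1936 in WT GMP, 2254 and 2285 in KO GMP, and 335 and 399 in replated KO. Cdc6, the ATPase that works with it, read 543 and 529.6 in WT LSK, 548 and 330.4 in KO LSK, 774 and 592 in WT CMP, 748 and 541 in KO CMP, 874 and 666 in WT GMP, 829 and 818 in KO GMP, and 147 and 163 in replated KO. Both genes were lower on the replated arrays than on any sorted array. Cdt1 fell by 2.32, 2.33 and 2.63 (SE 0.26 each) against KO LSK, CMP and GMP, and Cdc6 by 1.46, 2.04 and 2.41 (SE 0.26 each), with limma adjusted p of at most 0.00288.

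Orc1, the subunit of the complex whose level follows the cell cycle, was dim and variable: 51.9 and 103 in WT LSK, 90.4 and 37.1 in KO LSK, 166 and 143 in WT CMP, 98 and 120.2 in KO CMP, 151 and 308 in WT GMP, 228 and 177 in KO GMP, and 36.2 and 35.5 in replated KO. The replated arrays lay just under KO LSK replicate 2, the lowest sorted array, and far under both GMP groups. The difference was -0.69 ± 0.47 against KO LSK (limma adjusted p = 0.36), and Orc1 fell by 1.60 ± 0.47 against KO CMP (limma adjusted p = 0.0361) and by 2.49 ± 0.47 against KO GMP (limma adjusted p = 0.0038). The call against KO CMP was lost without any 1 of 8 arrays, namely each CMP, KO GMP and replated array, and over all alternatives the difference ran from -1.74 to -0.48. Orc2, a subunit whose level is steadier through the cycle, read 1185 and 942 in the replated cells and 726 to 3078 in the sorted arrays, with differences of 0.05, -0.33 and -0.10 that did not pass the test.

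Activation of the loaded helicase needs Mcm10, Cdc45 and the 4 GINS proteins. Gins1 read 1305 and 1518 in WT LSK, 1722 and 967 in KO LSK, 1888 and 1821 in WT CMP, 1984 and 1644 in KO CMP, 2205 and 2251 in WT GMP, 2211 and 2153 in KO GMP, and 280.5 and 239 in replated KO. Cdc45 read 462 and 625 in WT LSK, 487 and 441 in KO LSK, 644 and 575 in WT CMP, 582 and 513 in KO CMP, 903 and 868 in WT GMP, 690.1 and 949.6 in KO GMP, and 156 and 130.1 in replated KO. Gins2 read 716 and 1348 in WT LSK, 770.4 and 615 in KO LSK, 902 and 1058 in WT CMP, 892 and 1311 in KO CMP, 950.1 and 1121 in WT GMP, 984 and 1082 in KO GMP, and 168 and 141 in replated KO. For all 3 genes both replated arrays lay well under the lowest sorted array, which for Gins1 was 967, in KO LSK. Gins1 fell by 2.32, 2.80 and 3.07 (SE 0.24 each), Gins2 by 2.16, 2.81 and 2.74 (SE 0.30 each) and Cdc45 by 1.70, 1.94 and 2.51 (SE 0.20 each) against KO LSK, CMP and GMP, with limma adjusted p of at most 0.000614.

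Of these 6 genes, 5 were lower than in KO LSK and all 6 lower than in KO CMP and KO GMP. Mcm10, which helps the helicase start, fell by 1.74 to 2.20. Gins3 and Gins4 moved less. Gins3 read 191 and 307 in the replated arrays and 233 to 927 in the sorted arrays, with a difference of -0.85 ± 0.40 against KO LSK (limma adjusted p = 0.168) and falls of 1.51 and 1.41 against KO CMP and GMP. The last 2 calls were lost without either array of the sorted group compared or without replated replicate 1. Gins4 fell by 0.80, 0.96 and 0.94. Its calls were lost without replated replicate 2 in each comparison, and in 1 or more of them without replated replicate 1, KO LSK replicate 1, KO CMP replicate 2 or KO GMP replicate 2.

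All 8 polymerase and primase genes were lower in each of the 3 comparisons. Pold2, the accessory subunit of polymerase delta, read 934 and 587 in WT LSK, 1028 and 419.5 in KO LSK, 893 and 556 in WT CMP, 565 and 648 in KO CMP, 829 and 669 in WT GMP, 956 and 734 in KO GMP, and 49.4 and 82.6 in replated KO. Both replated arrays lay far under the lowest sorted array, KO LSK replicate 2. Pold2 fell by 3.36 ± 0.44 against KO LSK, by 3.24 ± 0.44 against KO CMP, and it fell by 3.71 ± 0.44 against KO GMP (limma adjusted p between 0.000238 and 0.00058). These were 10.3-, 9.47- and 13.1-fold differences, the largest among the 39 genes in each comparison. The KO LSK arrays of Pold2 differed, and without replicate 1 or 2 of them the difference against KO LSK was -2.71 or -4.01.

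The catalytic subunits of both main polymerases were low as well. Pole, the catalytic subunit of polymerase epsilon, read 318 and 450.2 in WT LSK, 492 and 606 in KO LSK, 418 and 434 in WT CMP, 439 and 312 in KO CMP, 289 and 293 in WT GMP, 512 and 366 in KO GMP, and 77.9 and 80.7 in replated KO. Pold1, that of polymerase delta, read 2154 and 1122 in WT LSK, 1129 and 734 in KO LSK, 1046 and 1498 in WT CMP, 806 and 913 in KO CMP, 1381 and 837 in WT GMP, 1137 and 869.8 in KO GMP, and 180.2 and 202 in replated KO. Replated values were under the sorted range for both genes, although Pold1 itself spanned 734 to 2154 among sorted arrays. Pole fell by 2.78, 2.22 and 2.45 (SE 0.23 each) and Pold1 by 2.25, 2.17 and 2.38 (SE 0.37 each), with limma adjusted p of at most 0.00203.

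The priming enzymes fell by less than Pold2 did. Prim1 and Prim2, the 2 primase subunits, fell by 1.66 to 1.86 and by 1.70 to 2.09. Pola1, the catalytic subunit of polymerase alpha, fell by 0.82, 1.49 and 1.49, from group levels of 824, 1307 and 1312 to 466. Pola2, its regulatory subunit, fell by 1.41, 1.29 and 1.73, and Pole2, a subunit of polymerase epsilon, by 1.15, 1.36 and 1.67. The Pola2 calls against KO LSK and KO CMP were lost without either replated array or without replicate 1 of the sorted group, and the Pole2 call against KO LSK without replated replicate 1.

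The sliding clamp and its loader were divided. Pcna, the ring that holds polymerases on DNA, read 5677 and 6282 in WT LSK, 6242 and 5944 in KO LSK, 6330.0 and 5858 in WT CMP, 5934 and 5383 in KO CMP, 6075 and 5795 in WT GMP, 5499 and 5756 in KO GMP, and 3547 and 3179 in replated KO. The 2 replated arrays were the lowest of the 14, and the 12 sorted arrays lay close together. Pcna fell by 0.86, 0.75 and 0.74 (SE 0.12 each, limma adjusted p of at most 0.00184). The small loader subunits Rfc3, Rfc4 and Rfc5 fell by 1.12 to 2.06. Against KO LSK the Rfc3 call was lost without replated replicate 2, and the Rfc5 call without any 1 of the KO LSK or replated arrays.

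Rfc2, another small subunit of the same loader, ran the other way. It read 1941 and 2390.3 in WT LSK, 2271 and 2687 in KO LSK, 2435 and 2148 in WT CMP, 2416 and 2316 in KO CMP, 2194 and 2350.4 in WT GMP, 2003 and 2259.8 in KO GMP, and 3397 and 2936 in replated KO. Both replated arrays were above every sorted array. The differences were 0.35 ± 0.16, 0.42 ± 0.16 and 0.57 ± 0.16, with limma adjusted p of 0.149, 0.0928 and 0.0263, so only the last passed, and it was lost without either KO GMP or either replated array. Rfc1, the large subunit, read 2422 and 2188 in the replated cells and 2124 to 3374 in the sorted arrays, with differences of -0.31, -0.24 and -0.31 that did not pass.

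Among the RPA genes, which encode the 3 subunits of the single-strand binding complex, Rpa2 read 1187 and 1604 in WT LSK, 1307 and 1232 in KO LSK, 1866 and 1812 in WT CMP, 1571 and 1565 in KO CMP, 1738 and 1912 in WT GMP, 1406 and 1930.0 in KO GMP, and 502 and 439 in replated KO. The replated arrays held the 2 lowest values, under every sorted array. Rpa2 fell by 1.43, 1.74 and 1.81 (SE 0.19 each) and Rpa3 by 0.72, 0.71 and 0.87 (SE 0.15 each), with limma adjusted p of at most 0.00809. The Rpa3 calls against KO LSK and KO CMP were lost without replated replicate 1, and the latter also without KO CMP replicate 1. Rpa1, the large subunit, differed by -0.40, -0.45 and -0.59 (SE 0.23 each, limma adjusted p between 0.0941 and 0.253) and passed in none, although its replated values, 2338 and 2551, were below its lowest sorted value, 2676.

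Completion of the lagging strand was represented by Fen1, the flap nuclease, and Lig1, the ligase. Lig1 read 1139.6 and 1029 in WT LSK, 1042 and 1374 in KO LSK, 1116 and 1124 in WT CMP, 1172 and 1135 in KO CMP, 1086 and 851 in WT GMP, 1207 and 1101 in KO GMP, and 460.0 and 285 in replated KO. Fen1 read 9018 and 9296 in WT LSK, 9846 and 9892 in KO LSK, 9570.1 and 9823 in WT CMP, 9712 and 9356 in KO CMP, 9659 and 9678 in WT GMP, 9673 and 9366 in KO GMP, and 6549 and 6352 in replated KO. Both genes were lower on the replated arrays than on any of the others. Lig1 fell by 1.72, 1.67 and 1.67 (SE 0.23 each) and Fen1 by 0.61, 0.56 and 0.56 (SE 0.11 each), with limma adjusted p of at most 0.00361.

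Nucleotide supply depends on ribonucleotide reductase, made of Rrm1 and Rrm2, and on Tyms, the thymidylate synthase. Rrm1 read 1361 and 1473 in WT LSK, 1686 and 1274 in KO LSK, 1727 and 1722 in WT CMP, 1767 and 1669 in KO CMP, 1629.9 and 1699 in WT GMP, 1741 and 1842 in KO GMP, and 573 and 499 in replated KO. Rrm2 read 6612 and 6027 in WT LSK, 5238 and 5411 in KO LSK, 6060.2 and 5955 in WT CMP, 5219 and 5805 in KO CMP, 6191 and 6595 in WT GMP, 6097 and 6244 in KO GMP, and 4449 and 5200.1 in replated KO. Rrm1 was clearly low in the replated cells. Both replated arrays of Rrm2 also lay under its lowest sorted array, 5219, but 1 of them only just. Rrm1 fell by 1.45, 1.68 and 1.74 (SE 0.15 each, limma adjusted p of at most 0.000104), and Rrm2 differed by -0.15, -0.19 and -0.36 (SE 0.13 each), which did not pass. Tyms was dim and uneven, at 53.4 to 267 in the sorted arrays and 78.3 and 54.1 in the replated arrays. It fell by 1.90 ± 0.42 against KO LSK (limma adjusted p = 0.00906), a call lost without KO LSK replicate 1 or replated replicate 2, and differed by -1.22 and -0.92 against KO CMP and GMP without passing.

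Ung removes uracil that has entered DNA in place of thymine. It read 2054 and 2503 in WT LSK, 2170.0 and 2241 in KO LSK, 3167 and 3161 in WT CMP, 3260.2 and 2851 in KO CMP, 2642 and 2865 in WT GMP, 2924 and 3039 in KO GMP, and 409 and 403 in replated KO. The 2 replated values were alike, and both lay far under the lowest sorted array. Ung fell by 2.44, 2.91 and 2.88 (SE 0.13 each), with limma adjusted p between 3.69e-07 and 1.26e-06, the smallest of the 39 genes in each comparison. The fall was 5.44-, 7.52- and 7.35-fold.

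**Figure D2:**
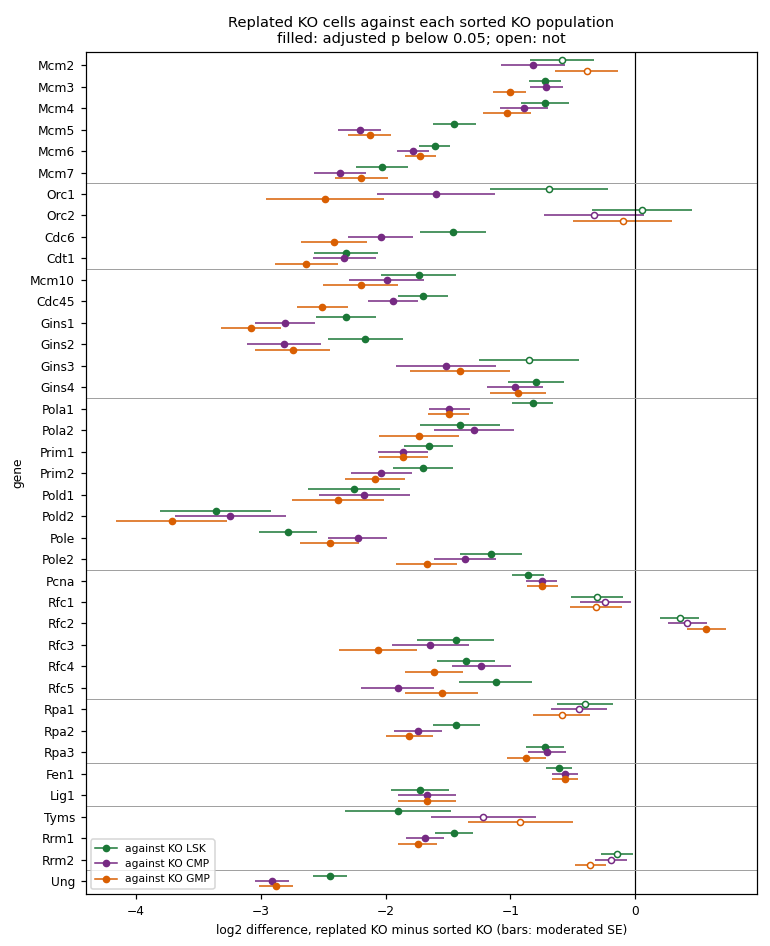
Log2 difference (horizontal axis) of replated KO against KO LSK, KO CMP and KO GMP for each of the 39 genes (vertical axis, in groups by role), with moderated SE; filled points passed an adjusted p below 0.05. Pold2 lies farthest left at -3.71 to -3.24, Orc2 and Rrm2 lie near 0 with open points, and Rfc2 lies to the right of 0.

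Difference and brightness of the probe set were only weakly related over the 39 genes, with Pearson correlations of 0.30, 0.31 and 0.38 against KO LSK, CMP and GMP. The 7 genes whose mean over the sorted arrays was 3000 or more had median differences of -0.72, -0.71 and -0.74, against -1.45, -1.71 and -1.78 for the other 32, although Mcm7, 1 of the 7, fell by 2.03 to 2.36. Since the members have 87 probe sets in all, 9 genes with 1 and 30 with several, the others could be read for the same gene. Of 48 other probe sets, 42 from 27 genes lay above the floor on both arrays of at least 1 group, not always on all arrays. Against KO LSK, CMP and GMP, 24, 25 and 28 of them were lower in the replated cells while 2, 0 and 2 were higher. The shares over all probe sets are not given here. The second probe set of Mcm2 had group levels of 526 in KO LSK, 609 in KO CMP, 623 in KO GMP and 202 in the replated cells, a fall of 1.38, 1.59 and 1.63 where the brightest had differed by -0.59, -0.82 and -0.39. That of Fen1 fell by 1.10, 1.60 and 1.66, from 2010, 2835 and 2961 to 936. Some dim probe sets showed no fall. The second of Cdc45, at 48.9 to 63.6 in the sorted KO groups and 57.0 in the replated cells, differed by 0.22, -0.01 and -0.16, the dimmest of Rrm1 by -0.13, -0.36 and -0.29, and the second of Orc1, around the floor, by 0.99, 0.64 and -0.16, and none of these passed.

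Averaging all probe sets of a gene changed some sizes by over 1.5 times. The differences against KO LSK, CMP and GMP became -0.74, -0.98 and -1.33 for Cdc45, -0.93, -1.14 and -1.11 for Mcm6, -1.61, -1.69 and -1.90 for Cdt1, -1.05, -1.33 and -1.36 for Prim2, and -0.40, -0.39 and -0.54 for Pola2. They became -0.69 and -0.78 for Pole2 against KO CMP and GMP, -1.05 for Rrm1 against KO CMP, -0.82 for Pola1 against KO GMP, -0.32 for Tyms against KO LSK, and -0.48 and -1.32 for Orc1 against KO CMP and GMP. Of these, Pola2 lost its calls against KO LSK and KO CMP, Tyms its call against KO LSK and Orc1 its call against KO CMP. The averages of Cdt1, Pola1, Pola2, Pole2 and Tyms include probe sets that were not above the floor. With the mean of only the probe sets above the floor, Pola2 kept both calls, whereas Tyms and Orc1 lost theirs. Without probe sets that can match several transcripts (suffixes x_at and s_at), Mcm5 fell by 2.11 against KO LSK, and Rfc4 by 1.87 and 2.21 against KO CMP and GMP.

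Probe sets of Rrm2 and Orc2 differed among themselves. The other 2 of Rrm2 fell by 1.44 and 1.83 against KO GMP but differed by -0.47 and -0.25 against KO LSK, without passing. The dimmest of Orc2 rose by 1.64 against KO LSK, from 65.4 to 204, and none of the 3 passed against KO GMP. All 3 probe sets of Rfc2 were above 0 in each comparison, at 0.57, 0.66 and 0.63 against KO GMP, with limma adjusted p between 0.0251 and 0.0368 over all probe sets. The other Tyms probe sets lay near or below the floor.

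**Figure D3:**
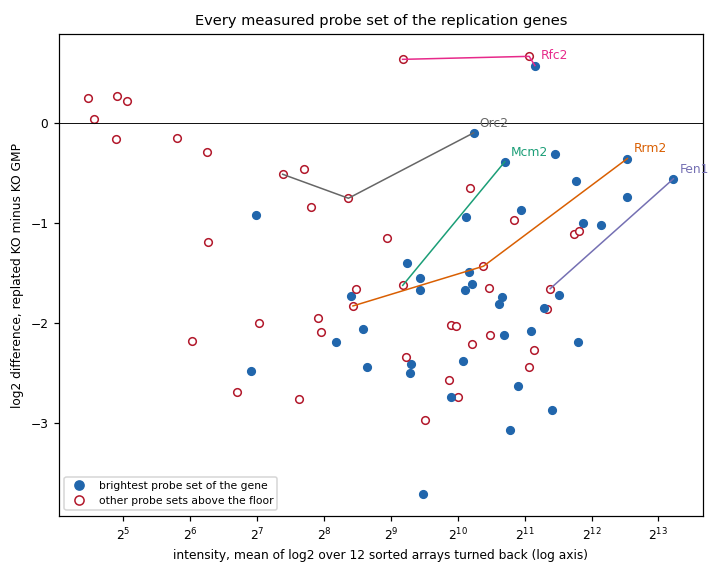
Log2 difference between replated KO and KO GMP (vertical axis) against the mean intensity over the 12 sorted arrays (horizontal log axis) for every probe set of the 39 genes above the floor; filled points are the brightest of their gene, and lines join the probe sets of 5 genes. The brighter probe sets of Mcm2, Fen1 and Rrm2 lie nearer to 0 than their dimmer ones, and all 3 of Rfc2 lie above 0.

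The promoters of the 39 genes were also read for the letters bound by the cell cycle factors named E2F. The genes were listed by function, and many are known to rise with E2F activity, so a high share of matches could be foreseen. Whether E2F had a part in the falls was not tested. RefSeq windows of 300 bases, 250 before and 50 after each annotated start (GRCm38.p6), matched 32 of the 39 genes by symbol. The letters TTTCGCGC or TTTGGCGC, on either strand, stood in 10 of these 32 genes (31.2%): Mcm3, Mcm5, Mcm6, Mcm7, Orc1, Cdt1, Pola1, Pole2, Rfc3 and Lig1. They stood in 0.929% of the 27025 genes with a window and in 0.813% of 32851 windows. The stretches upstream of the start that hold such a match in 5 of them are shown on the gene's strand with the match in capitals. A match on the opposite strand reads GCGCGAAA or GCGCCAAA there, and overlapping matches make 1 longer run. In the other 5 the match lay after the start and is not shown.

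Mcm5, chr8:75109336-75109395, + strand: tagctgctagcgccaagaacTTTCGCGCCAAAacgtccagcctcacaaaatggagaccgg
Mcm6, chr1:128359725-128359835, - strand: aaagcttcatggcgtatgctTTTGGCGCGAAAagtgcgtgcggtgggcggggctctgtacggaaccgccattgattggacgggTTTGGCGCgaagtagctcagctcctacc
Orc1, chr4:108579394-108579453, + strand: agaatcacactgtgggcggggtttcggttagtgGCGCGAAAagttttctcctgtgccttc
Pola1, chrX:93632254-93632313, - strand: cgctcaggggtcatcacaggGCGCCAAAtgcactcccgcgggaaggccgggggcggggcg
Rfc3, chr5:151651209-151651268, - strand: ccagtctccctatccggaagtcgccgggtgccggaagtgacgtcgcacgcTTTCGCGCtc

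Mcm5 and Mcm6 each hold both forms overlapped, read on opposite strands, and Mcm6 holds a further TTTGGCGC closer to its start, at 47 to 40 bases before it. The match of Orc1 lies 27 to 20 bases before the start and that of Rfc3 10 to 3 bases before it. CCAAT, the letters bound by NF-Y, on either strand stood in 21 of the 32 genes (65.6%) and in 41.1% of all genes, and TTTGAA, a core of the letters called CHR, in 5 of 32 (15.6%) and 20.2% of all. These are matches of letters, not sites shown to be bound. The 10 genes with an E2F match had median differences of -1.44, -1.66 and -1.89 in the replated cells, and the 22 without had -1.38, -1.40 and -1.58.

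Other genes of the pathway, listed by function, moved in the same direction in part. Of 15 other origin factors, 4, 7 and 7 were lower than in KO LSK, CMP and GMP and none higher; Orc6 fell by 1.52, 1.24 and 1.33 and Gmnn, the inhibitor of Cdt1, by 1.03, 1.19 and 1.38, while Dbf4, the activator of the origin-firing kinase, differed by 0.62, 0.16 and 0.10 without passing. Of 18 other fork factors, 8, 11 and 12 were lower and 1 higher. Dscc1, part of an alternative clamp loader, fell by 1.87, 2.54 and 2.66, and Top1, the topoisomerase that relaxes DNA, rose by 1.28, 1.27 and 1.09.

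Of 10 other nucleotide genes, 5, 6 and 6 were lower. Dctd, the deaminase of dCMP, fell by 3.36, 3.31 and 3.47, from a level of 487 in KO GMP to 43.9. Dut, which breaks down dUTP and so acts before Ung in keeping uracil out of DNA, fell by 2.26, 2.37 and 2.48, from 7627 to 1365. Of 8 genes of replication-coupled chromatin, 5, 4 and 4 were lower and 2, 1 and 1 higher. Among those lower was Hells, a chromatin remodeller, at -1.65, -2.09 and -2.20. Chaf1b, a subunit of the histone chaperone CAF-1, rose by 1.36, 1.37 and 2.00.

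Of 15 G1/S regulators, 5, 5 and 8 were lower and 2, 1 and 1 higher. The cyclin-dependent kinase Cdk2 fell by 1.17, 1.04 and 0.87 and Skp2 by 0.88, 1.92 and 2.18, whereas Rb1, which restrains E2F, rose by 2.36, 1.52 and 1.41. E2f1 differed by -0.27, -0.52 and -0.93 and did not pass. Of 6 base excision and mismatch repair genes, 2, 3 and 2 were lower. Among them was Apex1, which cuts the DNA backbone where a base was removed, at -1.47, -1.41 and -1.30. Of 19 mitotic genes, 7, 9 and 11 were lower, with medians of -0.53, -0.56 and -0.85. Cdk1 fell by 1.39, 1.67 and 1.72, and Mki67 differed by -0.63, -0.12 and -0.09 without passing. In none of these lists was the count as high a share as in the 39 genes, a difference that was not tested.

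**Figure D4:**
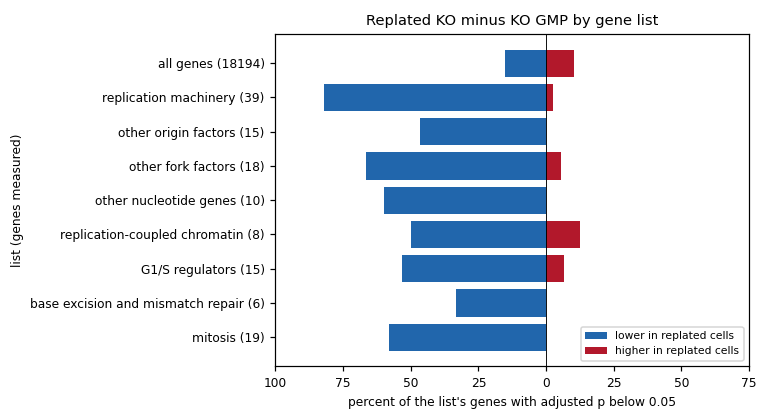
Percent of each list's genes called lower (left of 0) or higher (right of 0) in replated KO than in KO GMP at an adjusted p below 0.05, with the number of genes measured in parentheses. The 39 replication genes reach 82.1% lower, against 15.2% of all 18194 genes, and the other lists lie between.

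Between sorted populations the genes differed by much less. From LSK to CMP, 34 of 39 were above 0 in WT, with a median of 0.23 against 0.03 over all genes, of which 55.5% were above 0, and 26 of 39 in KO, with a median of 0.20 against 0.06 over all genes, of which 58.2% were above 0. From LSK to GMP, 33 of 39 were above 0 in WT (median 0.27) and 32 of 39 in KO (median 0.29), against medians of 0.07 in both over all genes. The share of all genes above 0 in each genotype alone is not given here for this step. In both genotypes at once, 74.4% of the 39 and 43.0% of all genes were above 0. The mean log2 intensity over the 39 genes lay between 10.07 and 10.27 on the 4 LSK arrays and between 10.35 and 10.49 on the 8 CMP and GMP arrays, which did not overlap. For single genes the separation was rarer. Mcm6, Pola1 and Ung had all 4 LSK arrays below all 8 CMP and GMP arrays, as did 3.2% of all genes, and no member had them above, as 3% of all genes did.

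Few of these differences passed the test. In WT, limma called 0 of 39 genes from LSK to CMP, from CMP to GMP and from LSK to GMP. Of all genes, 1.53%, 0.89% and 7.09% were called in these steps. In KO it called 0 of 39 from LSK to CMP and 0 from CMP to GMP, against 1.15% and 0.769% of all genes. From KO LSK to KO GMP 3 genes were called higher and none lower, and 3.42% of all genes were called higher. Mcm5 rose by 0.68 ± 0.17 (limma adjusted p = 0.0468), Cdc45 by 0.81 ± 0.20 (limma adjusted p = 0.0448) and Pola1 by 0.67 ± 0.16 (limma adjusted p = 0.0405). Mcm5 lost its call without any 1 of the 12 sorted arrays, and Cdc45 and Pola1 theirs without any 1 of the 12 arrays other than WT LSK. All 3 calls were lost when the fit held only the arrays compared.

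Orc1, whose arrays are given above, had the largest step from LSK to GMP in both genotypes. It differed by 1.56 ± 0.47 in WT (limma adjusted p = 0.0897) and by 1.79 ± 0.47 in KO (limma adjusted p = 0.0553), and neither passed. Cdc6 differed by 0.51 in WT and 0.95 in KO, and Gins1 by 0.66 and 0.76. Tyms ran in opposite directions, at 0.80 and -0.98, and neither passed. Pold1 and Pole in WT had the lowest values of the step, -0.53 and -0.38. The WT and KO steps share no array, and over the 39 genes 29 were above 0 in both, 74.4% against 43.0% of all genes. The Pearson correlation of the WT and KO step over genes, which are not independent, was 0.49 over the 39 and 0.71 over all genes. From LSK to CMP 23 of 39 (59.0%) were above 0 in both genotypes, against 37.1% of all genes, and 14 had opposite signs.

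**Figure D5:**
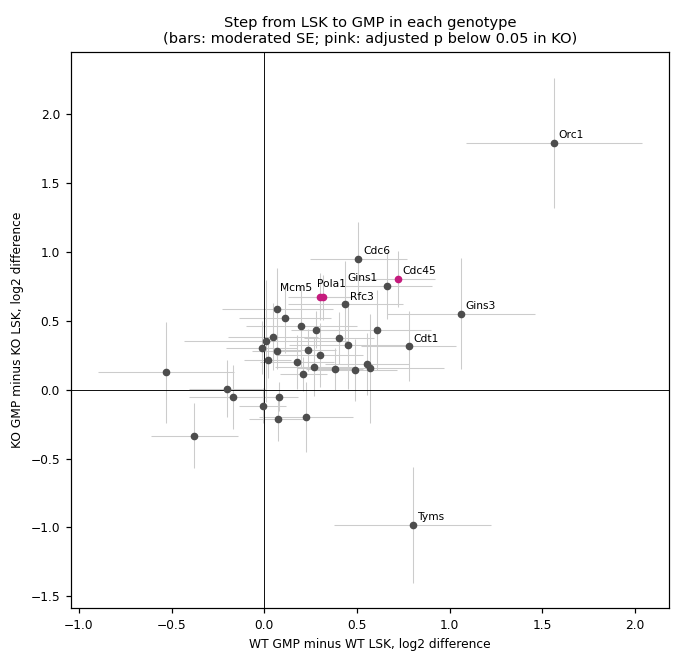
Log2 difference between GMP and LSK in WT (horizontal axis) and in KO (vertical axis) for the 39 genes, with moderated SE; the 3 pink points passed the test in KO. Most points lie above 0 on both axes, Orc1 is highest in both, and Tyms is above 0 in WT and below 0 in KO.

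Whether KO cells took a different step was tested directly as the KO step minus the WT step. It was called for 0 of 39 genes from LSK to CMP, from CMP to GMP and from LSK to GMP by limma. Of all genes, 0.022%, 0% and 0.0055% were called. The smallest adjusted p of the 39 was 0.623, for Mcm5 from LSK to CMP, where the KO step exceeded the WT step by 0.70 ± 0.24. For Tyms the step from LSK to GMP differed by -1.78 ± 0.60 (limma adjusted p = 0.66).

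Between KO and WT none of the 39 genes passed the test. KO minus WT was called for 0 genes averaged over LSK, CMP and GMP, and for 0 in each of LSK, CMP and GMP by limma. Over all genes, 0.308%, 0.264%, 0.121% and 0.0934% were called in the same comparisons. The median difference was -0.06 averaged, -0.0042 in LSK, -0.09 in CMP and -0.04 in GMP, against 0.03, 0.01, 0.04 and 0.02 over all genes. For 38 of 39 genes the 95% interval of the averaged difference lay within 2-fold either way. In LSK, CMP and GMP alone this held for 29, 30 and 34 genes, and the intervals of the rest reached past 2-fold.

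Tyms, at 100 and 53.4 in WT LSK and 267 and 221 in KO LSK, differed by 0.76 ± 0.24 averaged (limma adjusted p = 0.364) and by 1.73 ± 0.42 in LSK (limma adjusted p = 0.172). Pole2 differed by -0.34 ± 0.14 (limma adjusted p = 0.522) and Pold1 by -0.48 ± 0.21 (limma adjusted p = 0.546). Mcm5 was 1661 and 1529 in WT LSK and 1208 and 1051 in KO LSK, groups that do not overlap, with a difference of -0.50 ± 0.17 (limma adjusted p = 0.357). None of these passed. Sex-linked transcripts moved with genotype in every population, as given above, and their part was not tested.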

How the data were processed

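Total RNA of 14 samples in 7 groups was measured on single-colour arrays. The deposited intensity values were made by the authors with RMA, which corrects background, normalizes arrays and summarises probes, per the submitters' processing notes; its version is not given in the sources used here. They are linear, so log2 was taken, with no further scaling. Of 45101 probe sets, 34958 have 1 gene in the platform annotation, 932 several and 9211 are not listed there; symbols were updated by gene identifier, and the brightest probe set of each gene gave 18194 genes. The number of arrays limits the precision.

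All 14 arrays were fitted with limma 3.58.1 in R 4.3.3 (7 group means, 7 residual degrees of freedom, empirical Bayes), with Benjamini-Hochberg adjustment over all genes and a threshold of 0.05. Errors are moderated standard errors. The script was tested on simulated data. Genes at or below the floor, the brightest of 27 bacterial control probe sets, count as not above background. The 39 members, the pathway and marker lists, the motifs and the comparisons were chosen with earlier results of these data known. All 39 members were named, many of them with every array and the others by differences, group levels or ranges. Some genes of the pathway lists are not reported here. Slide and scan dates were not used, so no batch was tested. Replicate numbers did not pair samples: over 21 pairs of groups, same-numbered samples had deviations correlated between -0.10 and 0.10. Alternatives covered an offset before log2, normalization, a filter on dim genes, the choice of probe set, the arrays fitted, the prior, a replicate block and leaving out each array.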

Additional observations from a re-analysis of the deposited data

How the results depend on the processing

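The counts of replication genes called in the replated comparisons stayed within 1.5 times their value under all 24 alternatives, at 25 to 34 against KO LSK, 27 to 34 against KO CMP and 30 to 36 against KO GMP, and no named gene's call reversed. Of the 97 calls in these 3 comparisons, 75 held under every alternative and 79 without any 1 array. With only the arrays compared, Mcm3, Mcm4, Gins4, Pole2, Rfc3 and Fen1 lost their call against KO LSK and Mcm2, Mcm4 and Fen1 theirs against KO CMP. With the mean of all probe sets of a gene, Mcm2 was called lower in all 3 comparisons, Gins3 against KO LSK and Rrm2 against KO GMP. Pola1, Pola2 and Tyms lost their call against KO LSK and Pola2 and Orc1 theirs against KO CMP. Rfc2 was called higher in all 3 comparisons, and Orc2 was called higher than in KO LSK and lower than in KO GMP. Mean probe sets above the floor, an alternative chosen after seeing the data, gave the same for Mcm2 and Orc2. With it Pola1 and Pola2 kept their calls, and Tyms against KO LSK and Orc1 against KO CMP lost theirs. The cause was not tested.

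Counts between sorted groups were small and moved more. From WT LSK to WT CMP, 1 gene was called with the mean of all probe sets or of those above the floor and 0 to 1 without 1 array. From WT LSK to WT GMP, 1 was called with median centring, 2 with the mean of all probe sets, 3 with the mean of those above the floor and 0 to 2 without 1 array. From KO LSK to KO GMP, 6 were called with the mean of all probe sets, 7 with that of those above the floor, 0 with only the arrays compared and 0 to 3 without 1 array. With a replicate block, which treats same-numbered arrays as paired although the numbers did not pair them, 1 gene, Tyms, was called in KO against WT LSK, at 1.73. The block changed no other count by over 1.5 times. With 2 arrays a group, leaving 1 out leaves a lone array that is assumed to vary like the other groups.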
